A study of Mus musculus with 2 samples.

Results

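Of 36 genes that drive, restrain or accompany apoptosis, 30 carried histone H3 trimethylated at lysine 4 (H3K4me3) around the 5' end in both replicates of MEL cells. MEL is an immortalised mouse erythroleukaemia line, described by the labels as a leukaemia counterpart of K562. H3K4me3, a mark of promoters that are active or poised for use, was mapped by chromatin immunoprecipitation and sequencing (ChIP-seq). The 36 genes are a named list of BCL2 family members, caspases and apoptosis regulators, taken out of 21536 protein-coding genes that have a position and a strand. They were split by textbook role into 20 pro-apoptotic genes, 11 anti-apoptotic genes and 5 that were placed on neither side. There is 1 group of samples, MEL cells given 2% DMSO for 5 days, with biological replicates 1 and 2. DMSO is a textbook inducer of erythroid maturation in this line. Both samples were treated, and untreated cells are not analysed here. The values therefore describe treated cells of a single transformed line and say nothing of a response to DMSO.

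Apoptosis runs along a pair of routes. In the mitochondrial route, BH3-only proteins sense stress and either block the guardians of the BCL2 group or engage BAX and BAK, which open the outer mitochondrial membrane. Cytochrome c then assembles with APAF1 into the apoptosome, which activates the initiator caspase of that route, and the inhibitor of apoptosis (IAP) proteins hold later steps in check. In the receptor route, FAS recruits FADD and the initiator caspase CASP8, and CFLAR competes for that place. In erythroid cells, BCL-XL, the product of Bcl2l1, is known to protect maturing cells from death, and caspases are also known to act in the loss of the nucleus and organelles without killing the cell.

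Each replicate has its own set of called peaks on mm10, with 48026 peaks in replicate 1 and 46950 in replicate 2. A gene was called marked when at least 1 peak of each replicate overlapped the 1000 bp on either side of its outer 5' end by 1 bp or more. The outer 5' end is the upstream limit of the gene in the RefSeq gene table. The enrichment value is the authors' own signal value of a peak, whose scale is not stated, and the highest one in the window stands for the gene. The highest peak can lie at a different place in each replicate, as at Bmf. The domain is the widest run of peaks in which gaps of up to 1000 bp are bridged. The files hold no read counts, so depth is unknown, and the error of a gene is the SD of its 2 replicates. Of 12 erythroid marker genes, 11 were marked, and Gata1 had a peak of both replicates within its span but not at its outer end. None of 4 T cell, 4 B cell, 4 myeloid and 3 hepatocyte markers was marked, though 1 T cell, 2 B cell and 1 hepatocyte marker had a peak elsewhere in the span.

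The 30 marked genes make up 83.3% of the 36, beside 47.1% of all 21536 protein-coding genes by the same rule. On the pro-apoptotic side 17 of 20 were marked, on the anti-apoptotic side 9 of 11, and of the remaining 5 genes 4 were marked. The unmarked genes were Bok, Hrk, Fas, Bcl2l1, Mcl1 and Casp12. With a peak anywhere in the gene span, extended by 1000 bp at both ends, 32 of the 36 genes counted, beside 57.9% of all genes. With a window around every RefSeq start as well as the outer end, 32 counted again, beside 49.5% of all genes. The 2 genes gained by each wider rule were Bcl2l1 and Mcl1, so that all 11 anti-apoptotic genes then carried a peak in both replicates. Bok, Hrk, Fas and Casp12 stayed without one under both rules. Shares of a chosen list beside shares of all genes are descriptions, and no test of the list was made.

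The height of the mark was close to that of other marked genes. The median enrichment value over the 30 marked genes was 12.8, with medians of 12.3 in replicate 1 and 14.6 in replicate 2, beside 13.2 for all 10133 marked protein-coding genes. Their values reached from 3.81 at Casp1 to 21.2 at Birc6, and 14 of the 30 lay above the median of all marked genes. Their median domain was 2483 bp wide, beside 2258 bp for all marked genes, and 16 of the 30 were wider than that median. Domains ran from 652 bp at Xiap to 7713 bp at Bcl2. Replicate 2 had the higher value in 19 of the 30 genes, or 63.3%, and in 64.1% of all marked genes. The replicates differed by more than 2-fold in 1 of the 30 genes, Bbc3, and in 4.49% of all marked genes. On the log2 scale the values of the replicates correlated over the 30 genes with r = 0.65 and the widths with r = 0.88, as a description over genes that share their libraries.

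**Figure D1:**
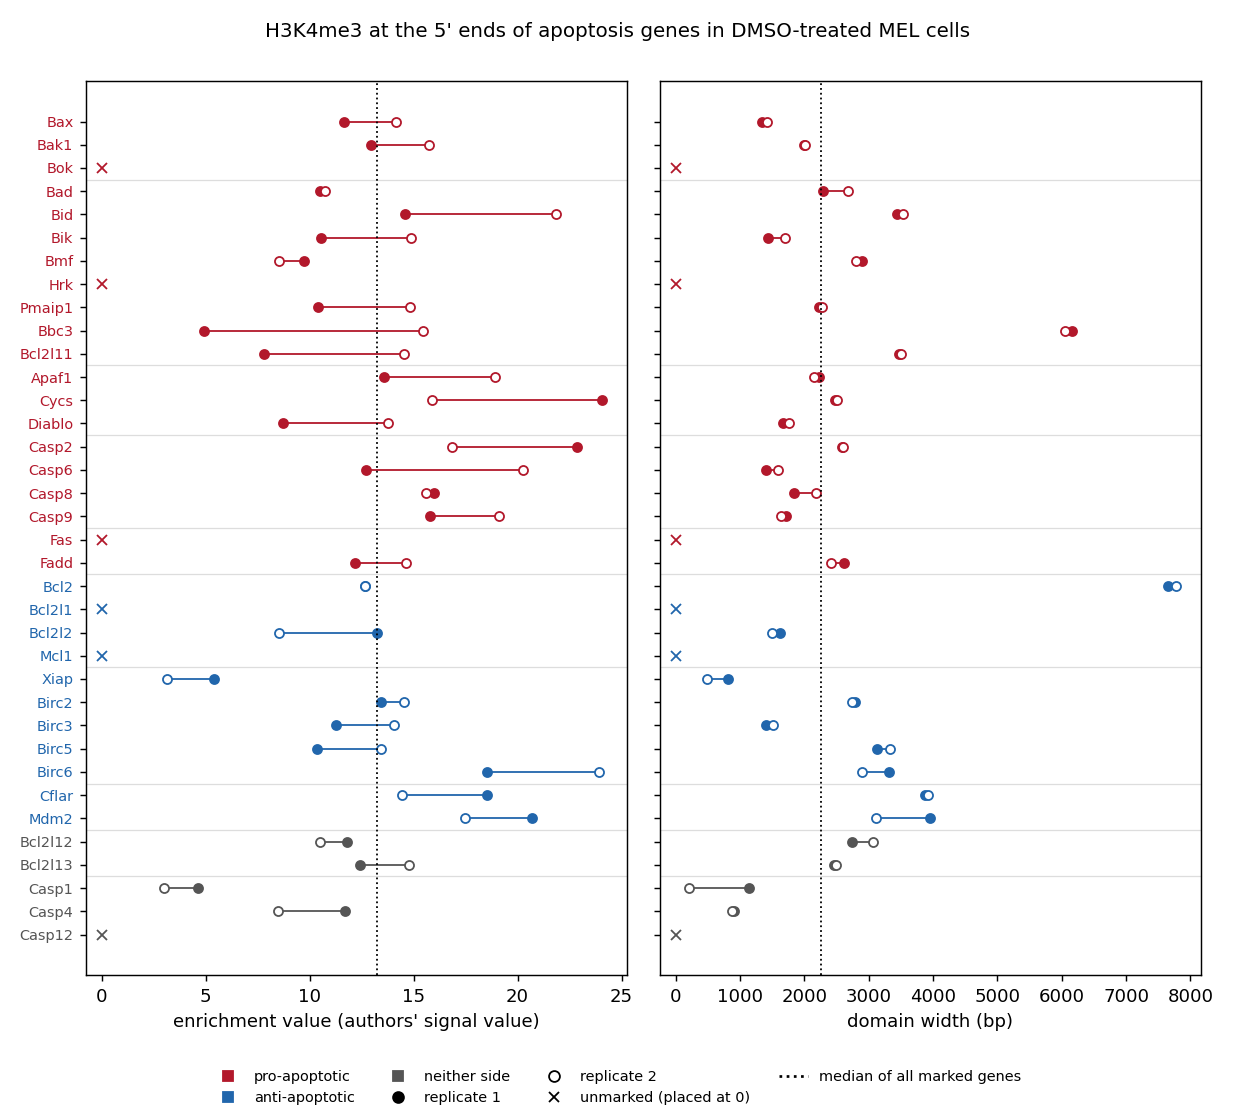
Enrichment value (left) and domain width in bp (right) of the 36 genes in DMSO-treated MEL cells, with replicate 1 as filled and replicate 2 as open circles, crosses for unmarked genes placed at 0, and dotted lines at the median of all marked protein-coding genes. Bcl2 and Bbc3 stand far to the right in width, at 7713 bp and 6110 bp on average, while their mean values lie left of the dotted line.

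The promoter windows of 5 genes are shown because they span the range of the list. They belong to the marked gene with the widest domain (Bcl2), with the highest value (Birc6) and with the lowest value (Casp1), and to the first 2 unmarked genes by name (Bcl2l1 and Bok). Each is the RefSeq window of 250 bases before to 50 bases after a transcription start on GRCm38.p6, the assembly behind mm10, written 5' to 3' on the gene's own strand with every CpG in capitals. Bcl2 lies at chr1:106714241-106714540 on the minus strand, Birc6 at chr17:74528045-74528344 on the plus strand and Casp1 at chr9:5298267-5298566 on the plus strand. Bcl2l1 lies at chr2:152831679-152831978 on the minus strand, at a start inside the gene, and Bok at chr1:93685325-93685624 on the plus strand. Peaks of both replicates overlap this Bcl2l1 window. The gene is unmarked only at its outer end, so its window is no example of a promoter without the mark.
Bcl2: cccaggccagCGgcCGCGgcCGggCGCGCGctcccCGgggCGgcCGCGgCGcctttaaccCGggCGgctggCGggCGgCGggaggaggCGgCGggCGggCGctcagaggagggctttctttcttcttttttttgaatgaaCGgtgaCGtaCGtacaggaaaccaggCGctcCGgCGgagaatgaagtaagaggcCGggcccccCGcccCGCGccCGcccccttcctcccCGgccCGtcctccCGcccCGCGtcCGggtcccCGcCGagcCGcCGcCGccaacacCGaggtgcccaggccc
Birc6: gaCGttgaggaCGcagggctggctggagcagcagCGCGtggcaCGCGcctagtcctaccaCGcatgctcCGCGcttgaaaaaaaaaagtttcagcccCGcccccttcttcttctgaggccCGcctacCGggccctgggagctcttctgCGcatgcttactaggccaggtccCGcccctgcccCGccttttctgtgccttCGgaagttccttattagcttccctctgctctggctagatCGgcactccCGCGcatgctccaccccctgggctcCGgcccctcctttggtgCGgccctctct
Casp1: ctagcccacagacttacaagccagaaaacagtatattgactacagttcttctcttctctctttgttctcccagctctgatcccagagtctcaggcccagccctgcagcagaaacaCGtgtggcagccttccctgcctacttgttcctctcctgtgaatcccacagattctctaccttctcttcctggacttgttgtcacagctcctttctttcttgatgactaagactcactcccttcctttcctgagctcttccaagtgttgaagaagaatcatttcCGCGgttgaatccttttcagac
Bcl2l1: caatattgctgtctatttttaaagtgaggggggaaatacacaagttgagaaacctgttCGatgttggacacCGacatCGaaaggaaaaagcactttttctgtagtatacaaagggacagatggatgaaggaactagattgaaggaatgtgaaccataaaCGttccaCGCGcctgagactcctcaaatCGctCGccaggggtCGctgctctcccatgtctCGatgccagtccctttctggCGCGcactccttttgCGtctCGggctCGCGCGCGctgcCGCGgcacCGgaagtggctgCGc
Bok: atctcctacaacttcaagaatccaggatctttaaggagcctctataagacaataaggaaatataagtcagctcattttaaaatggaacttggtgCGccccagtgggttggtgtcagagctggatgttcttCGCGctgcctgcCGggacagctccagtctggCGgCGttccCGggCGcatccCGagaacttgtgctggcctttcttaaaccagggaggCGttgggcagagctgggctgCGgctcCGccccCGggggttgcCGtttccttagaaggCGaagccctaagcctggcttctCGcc
The Bcl2 window held 44 CpG, that of Birc6 21, that of Casp1 3, that of Bcl2l1 22 and that of Bok 16. The lowest value of the list thus stood over one of its CpG-poorest windows, but Bok, with 16 CpG, had no peak in its span.

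Pro- and anti-apoptotic genes did not separate by height. The 17 marked pro-apoptotic genes had a median value of 13.4, against 12.7 for the 9 marked anti-apoptotic genes. The difference, pro minus anti, was 0.74 for the mean of the replicates, but −1.04 in replicate 1 and 1.39 in replicate 2, so its sign depended on the replicate. Within replicates the pro-apoptotic medians were 12.2 and 15.4, and the anti-apoptotic medians 13.2 and 14.1. Above the median of all marked genes stood 9 of the 17 pro-apoptotic and 4 of the 9 anti-apoptotic genes.

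Median domain width was smaller on the pro-apoptotic side under the gap used. It was 2252 bp for the 17 pro-apoptotic genes (2227 bp in replicate 1 and 2280 bp in replicate 2), against 3106 bp for the 9 anti-apoptotic genes (3136 bp and 2899 bp). The difference was −854 bp, with −909 bp in replicate 1 and −619 bp in replicate 2. The order held only with gaps bridged. With no gap bridged, the medians were 1475 bp for the pro-apoptotic and 1463 bp for the anti-apoptotic genes, a difference of 12 bp in the other direction. Genes of the same side are no replicates of each other, so these medians carry no test. The mark reached farther into the gene than away from it at 23 of the 30 marked genes (76.7%), and at 76.0% of all marked genes. The base of the outer 5' end itself was covered in both replicates at 12 of the 36 genes, beside 20.0% of all protein-coding genes. Among marked genes alone the shares were 40.0% of the 30 and 42.5% of all. At 9 of the 30 marked genes neither replicate covered it, as was so at 35.7% of all marked genes, and the window then held peaks to the side of the start.

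**Figure D2:**
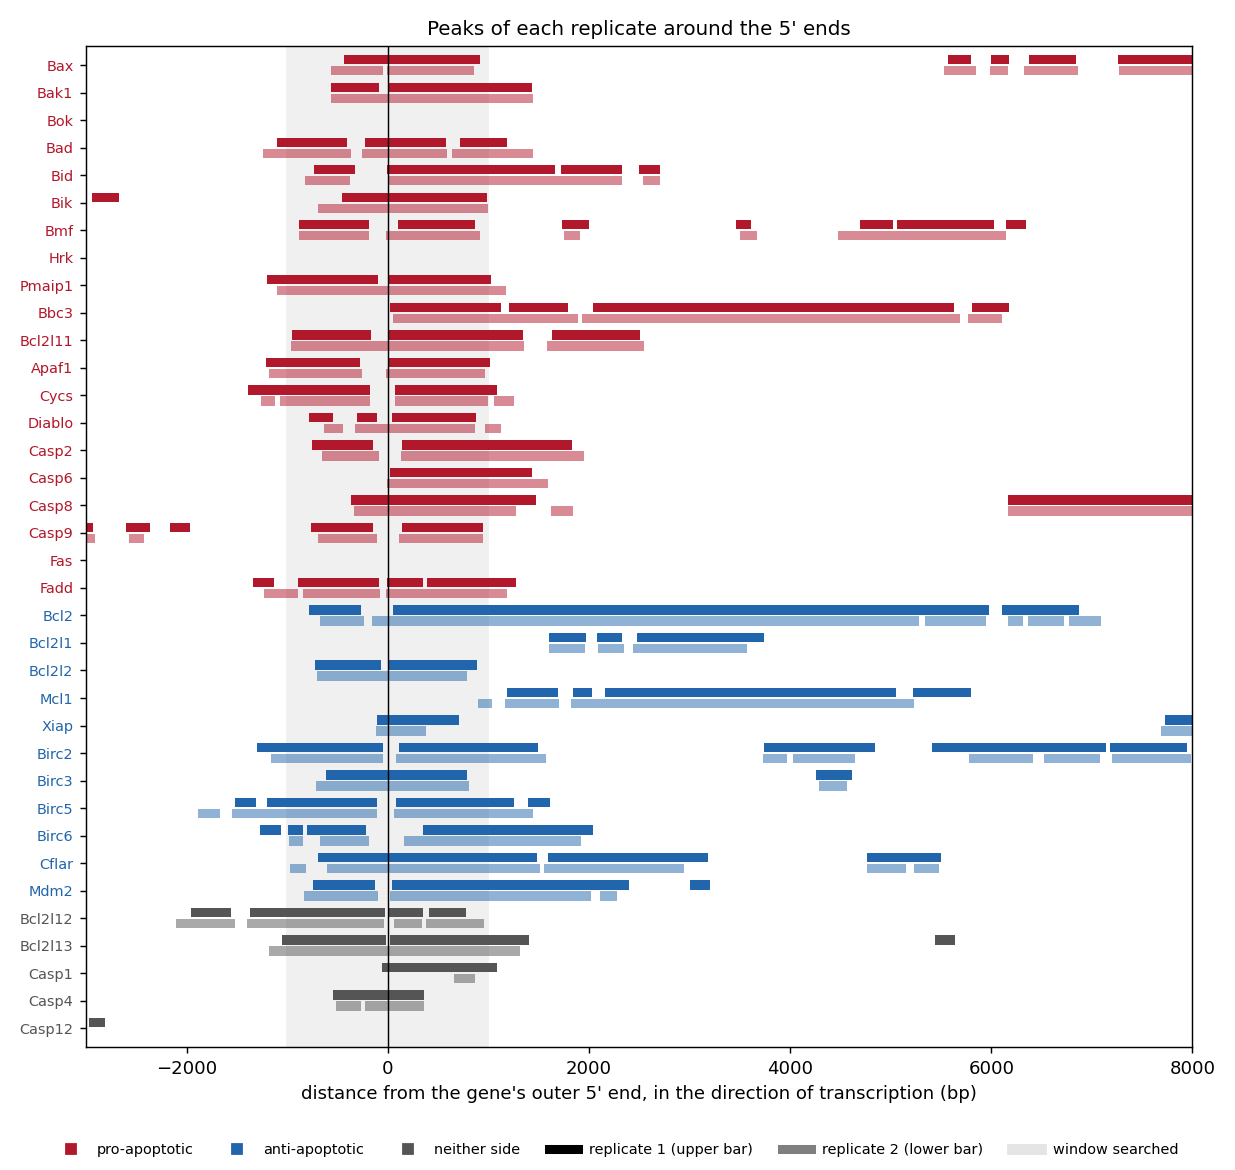
Peaks of replicate 1 (upper bars) and replicate 2 (lower bars) around the outer 5' end of each of the 36 genes, by distance in bp in the direction of transcription, with the window of 1000 bp on either side shaded and bars cut off at the edges of the plot. Many genes show a gap at or near the start between peaks to both sides, and at Bcl2l1 and Mcl1 the strong peaks begin downstream of the shaded window.

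Of the effectors, which form the pore in the outer mitochondrial membrane, 2 of 3 were marked. Bax had values of 11.6 in replicate 1 and 14.1 in replicate 2, over domains of 1349 bp and 1425 bp. Bak1 had 12.9 and 15.8, over 1992 bp and 2003 bp. Both lay near the median of all marked genes in value and below it in width. Bok, a more distant relative that acts in part at the endoplasmic reticulum, had its nearest peaks 16311 bp upstream in replicate 1 and 16029 bp upstream in replicate 2.

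Of the BH3-only genes, the stress sensors of the family, 7 of 8 were marked, with a median value of 11.2 and a median domain of 2842 bp. Bid, whose product CASP8 cleaves to link the receptor to the mitochondrial route, had the highest value, with 14.6 in replicate 1 and 21.8 in replicate 2 (18.2 ± 5.12, SD, n = 2). Its domain measured 3436 bp and 3534 bp. Bid was the only BH3-only gene above the median value of all marked genes. Bbc3, which encodes the p53 target PUMA, had 4.89 and 15.4 at its outer end (10.2 ± 7.46, SD, n = 2). Its domain was 6162 bp and 6058 bp wide, wider than that of 98.5% of all marked genes, and it began 18 bp and 49 bp downstream of the outer end and ran into the gene over 3 further RefSeq starts. With no gap bridged, the widest Bbc3 peak that reaches the window averaged 1475 bp, so the full width of its domain rests on the joining of separate peaks. A wider single peak of that domain lay farther in, at chr7:16310434-16314030 in replicate 1 and chr7:16310331-16314082 in replicate 2. The strongest Bbc3 peak near any start had 9.77 in replicate 1 and 19.6 in replicate 2, so the replicates differed in height by about 2-fold there too while they agreed in extent.

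Bcl2l11, which encodes BIM, the sensor of lost cytokine signals in blood cells, had 7.78 and 14.5 over 3463 bp and 3508 bp. Bmf, tied to the cytoskeleton, had 9.71 and 8.50 over 2888 bp and 2796 bp, the lowest mean value of the marked pro-apoptotic genes (9.11 ± 0.859, SD, n = 2). Neither gene reached the median value of all marked genes on average, though both domains were wider than the median. Pmaip1, which encodes the p53 target NOXA, had 10.4 and 14.8 over 2223 bp and 2280 bp. Bik, whose product sits at the endoplasmic reticulum, had 10.6 and 14.9 over 1442 bp and 1694 bp. Bad, held inactive by phosphorylation when growth factors are present, had 10.5 and 10.7 over 2291 bp and 2682 bp. Its strongest peak also reaches the window around the 5' end of the neighbour Gpr137, so the mark cannot be assigned to Bad alone. Hrk, known chiefly from neurons, had its nearest peaks 13919 bp and 13959 bp upstream and none in its span.

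The apoptosome and the factors released from mitochondria were marked at 3 of 3 genes. Cycs, the somatic cytochrome c gene, had 24.0 in replicate 1 and 15.9 in replicate 2 (20.0 ± 5.79, SD, n = 2), higher than 95.6% of all marked genes. Its domain of 2474 bp and 2514 bp was of ordinary width. Apaf1, the scaffold of the apoptosome, had 13.6 and 18.9 over 2227 bp and 2148 bp, and its strongest peak also reaches the window around the 5' end of Ikbip. Diablo, which encodes the IAP antagonist SMAC, had 8.70 and 13.8 over 1667 bp and 1755 bp. Cycs was the highest of the 3 in replicate 1 and Apaf1 in replicate 2.

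All 4 apoptotic caspases of the list were marked and all 4 lay above the median value of all marked genes, with a median of 17.0. Casp2, an initiator linked to DNA damage and chromosome number, had 22.8 and 16.9 (19.9 ± 4.23, SD, n = 2) over 2582 bp and 2604 bp. Casp9, the initiator that the apoptosome activates, had 15.8 and 19.1 over 1712 bp and 1640 bp. Casp6, an executioner known for cleaving lamin A, had 12.7 and 20.2 over 1404 bp and 1595 bp. These 3 genes overlap within their replicate spread and no order is given. Casp8, the initiator of the receptor route, had 16.0 and 15.6 over 1838 bp and 2176 bp. A further domain stood at a RefSeq start 7269 bp inside Casp8, with a peak of 16.7 at chr1:58801402-58804330 in replicate 1 and of 9.60 at chr1:58801399-58804236 in replicate 2.

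In the receptor arm 1 of 2 genes was marked. Fadd, the adaptor that carries CASP8 to the receptor, had 12.2 and 14.6 over 2613 bp and 2416 bp. Fas, the receptor itself, was unmarked, with its nearest peaks 19767 bp upstream in replicate 1 and 19545 bp upstream in replicate 2 and none in its span. The mark was therefore found over the adaptor and the initiator caspase of this route and not over the receptor gene.

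Among the BCL2 guardians, which bind and hold BAX, BAK and the BH3-only proteins, 2 of 4 were marked at the outer 5' end and 4 of 4 once every RefSeq start was used. Bcl2 had 12.64 in replicate 1 and 12.66 in replicate 2, the closest pair of replicates on the anti-apoptotic side. Its domain of 7655 bp and 7770 bp (7713 ± 81.3, SD, n = 2) was wider than that of 99.5% of all marked genes. It reached 732 bp upstream and 6980 bp into the gene on average, whereas the median over all marked genes was 795 bp upstream and 1348 bp downstream. With no gap bridged, the Bcl2 domain still averaged 5690 bp. Bcl2l2, which encodes BCL-W, had 13.2 and 8.51 over 1616 bp and 1491 bp. Bcl2 was thus far wider than Bcl2l2, by much more than the spread between replicates, while their values overlapped.

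Bcl2l1 and Mcl1 were unmarked at the outer end and had their peaks farther in. For Bcl2l1 the nearest peak of each replicate began 1599 bp downstream of the outer end, and RefSeq starts lie 2075, 3086 and 5314 bp downstream. The strongest peaks near those starts had 12.6 at chr2:152830060-152831322 in replicate 1 and 14.6 at chr2:152830233-152831370 in replicate 2, in domains of 2145 bp and 1972 bp. That value, 13.6 ± 1.40 (SD, n = 2), sits near the median of all marked genes. Mcl1, which encodes a short-lived guardian that blood stem cells need, has a RefSeq start 1777 bp downstream of the outer end. The strongest peak near it had 17.4 at chr3:95659106-95662000 in replicate 1 and 10.3 at chr3:95658110-95658647 in replicate 2. Their domains measured 4613 bp and 4336 bp. These are different peaks, and overlapping pairs of the replicates had 9.90 and 10.3, and 17.4 and 9.47. At the outer end of Mcl1, replicate 2 had a weak peak of 2.18 that began 896 bp downstream, while the nearest peak of replicate 1 began 1182 bp downstream and outside the window. The call for Mcl1 at the outer end therefore rested on replicate 1 alone.

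**Figure D3:**
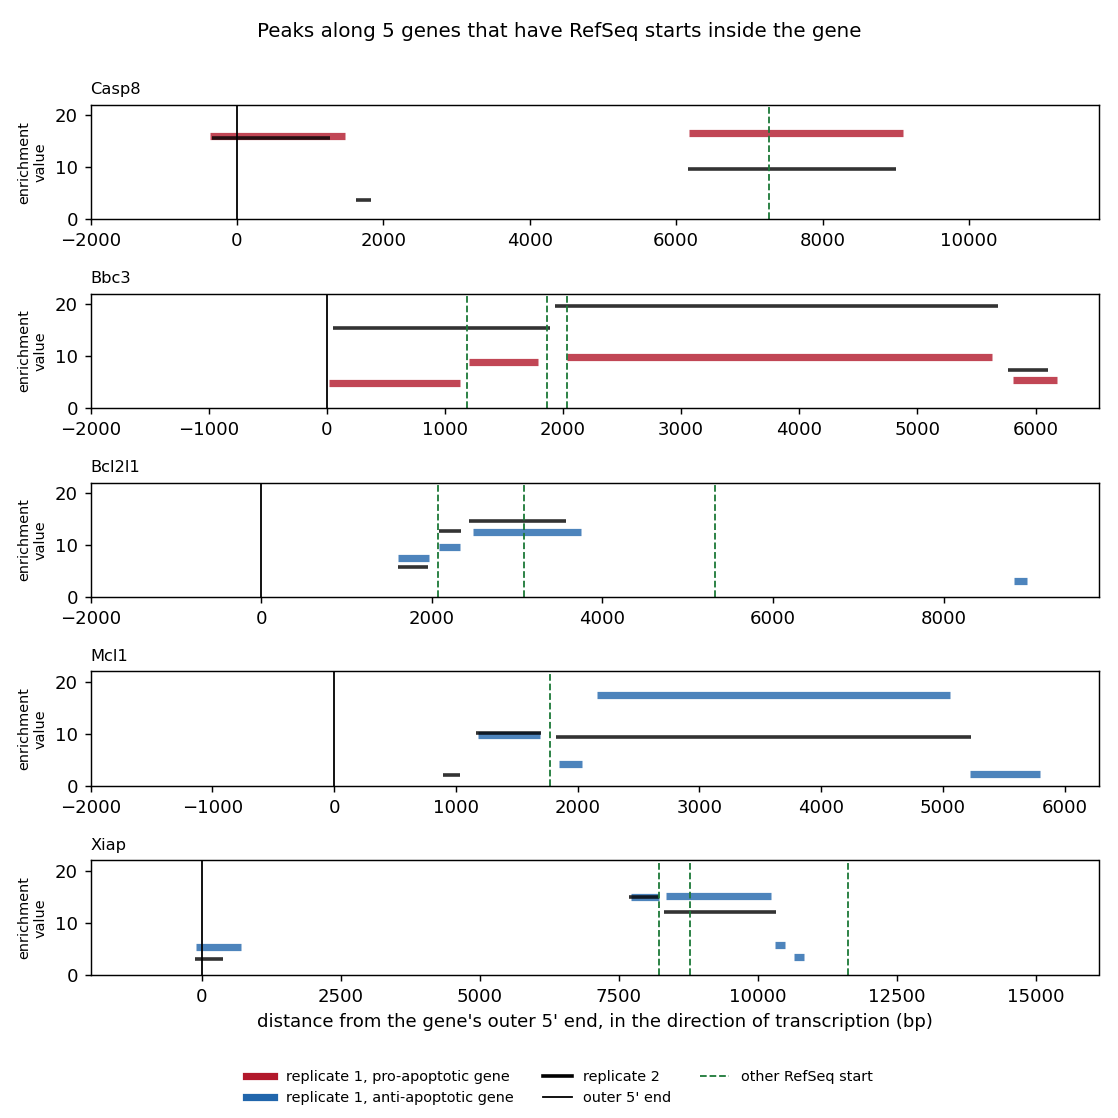
Peaks along Casp8, Bbc3, Bcl2l1, Mcl1 and Xiap by distance in bp from the outer 5' end (solid line), with enrichment value on the vertical axis, replicate 1 as coloured bars, replicate 2 as black bars, and dashed lines at other RefSeq starts. At Bcl2l1, Mcl1 and Xiap the highest bars lie near the inner starts, and at Bbc3 the bars form a nearly continuous run from the outer end into the gene.

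All 5 IAP genes of the list were marked, with a median value of 12.7 and a median domain of 2764 bp. Birc6, which encodes a very large ubiquitin-conjugating member of the family, had the highest value of the 36 genes, with 18.5 and 23.9 (21.2 ± 3.81, SD, n = 2). It was higher than 97.6% of all marked genes, and its domain measured 3312 bp and 2899 bp. Birc2 and Birc3, which encode the ubiquitin ligases cIAP1 and cIAP2 of tumour necrosis factor signalling, lie next to each other in the same orientation on chromosome 9. Birc2 had 13.4 and 14.5 over 2794 bp and 2733 bp, and Birc3 had 11.3 and 14.1 over 1407 bp and 1519 bp. Their values overlapped, and Birc2 was the wider in both replicates. Birc5, which encodes survivin, a part of the chromosomal passenger complex of dividing cells, had 10.4 and 13.4 over 3136 bp and 3332 bp.

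Xiap, the direct inhibitor of executioner caspases, had the lowest value on the anti-apoptotic side at its outer end, with 5.41 and 3.14 (4.27 ± 1.60, SD, n = 2) over 811 bp and 492 bp. Only 1.57% of all marked genes were lower. RefSeq starts lie 8223, 8785 and 11629 bp farther in, and the peaks near them had 15.2 and 14.9 in domains of 3099 bp and 2631 bp. The strongest inner peaks of Xiap stood well above its outer ones in both replicates. In order along the gene they had 15.0 and 15.2 in replicate 1, and 14.9 and 12.0 in replicate 2. The inner value, 15.1 ± 0.209 (SD, n = 2), thus joins different peaks, and its SD is not the spread at a single place. It differed from the outer value by more than the spread of either.

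Cflar and Mdm2, the remaining restraints, were both marked, above the median of all marked genes in value and in width. Cflar, which encodes the CASP8 decoy c-FLIP, had 18.5 and 14.5 over 3874 bp and 3922 bp. A second strong Cflar peak, more than 1000 bp from any listed start, had 15.5 at chr1:58712901-58714492 in replicate 1 and 18.7 at chr1:58712867-58714259 in replicate 2. It adjoins the promoter peak and belongs to the same domain. Mdm2, the ubiquitin ligase of p53, had 20.7 and 17.5 (19.1 ± 2.27, SD, n = 2) over 3951 bp and 3117 bp.

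Of the 5 genes on neither side 4 were marked, and Casp1 was by far the lowest of them. Bcl2l12, a BCL2-related gene, had 11.8 and 10.5 over 2734 bp and 3061 bp, and its strongest peak also reaches the window around the 5' end of Irf3. Bcl2l13, known as a mitophagy receptor, had 12.4 and 14.8 over 2462 bp and 2495 bp. Casp1, Casp4 and Casp12 belong to the inflammatory caspase group and lie in a row on chromosome 9. Casp1, the caspase of the inflammasome, had 4.61 and 3.01 (3.81 ± 1.13, SD, n = 2), with only 0.908% of all marked genes lower. Its peaks measured 1147 bp in replicate 1 and 208 bp in replicate 2, where the peak began 660 bp downstream of the outer end. Casp4, the mouse sensor of intracellular lipopolysaccharide also called caspase-11, had 11.7 and 8.45 over 911 bp and 871 bp. Casp12, an endoplasmic reticulum caspase in the mouse, was unmarked, with its nearest peak upstream at 2813 bp in replicate 1 and 36236 bp in replicate 2. The marked inflammatory caspases had a median value of 6.94 against 17.0 for the 4 apoptotic caspases, and no apoptotic caspase was as low as Casp1 or Casp4 in either replicate.

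Beyond the starts, 10 of the 36 genes held a peak of each replicate inside the gene and more than 1000 bp from every listed start: Bad, Bbc3, Bcl2, Bcl2l1, Bid, Birc2, Birc3, Bmf, Cflar and Mdm2. The same count was not made over all protein-coding genes, so whether it is high or low for a list of this size is unknown. Apart from Cflar, the strongest were at Bad, near its 3' end, with 8.88 in replicate 1 and 13.2 in replicate 2. In the other 8 genes no such peak exceeded 7.42, the value of a Bbc3 peak in replicate 2. The Bad peak was thus the strongest of those that stood apart from the promoter domain of their own gene.

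The promoter windows of 34 of the 36 genes were found in the RefSeq table, at the listed start nearest the outer end, and Bik and Pmaip1 had no match. The median window held 22 CpG, beside 13 for the 17492 promoters of the table and 22 for those of marked genes. The pro-apoptotic windows had a median of 24 CpG, the anti-apoptotic windows 22 and the 5 others 5. The richest were Apaf1 with 46 and Bcl2 with 44, and the poorest were Casp1 and Casp12 with 3 each. Over the whole table the median was 22 CpG for genes marked at the outer end and 4 for those unmarked there. By the rule of any start these medians were 21 and 4. Among the 34 genes the median was 22 for the 28 marked at the outer end and 19 for the 6 others. By the rule of any start it was 22 for the 30 marked and 15 for the 4 unmarked genes. Single genes departed from this order, picked after their values were seen. Hrk was unmarked with 29 CpG, while the Xiap window, at the start 8223 bp inside the gene, held 5 CpG and the peaks near the inner starts had 15.2 and 14.9. The Casp8 window, at its inner start, also held 5 CpG, and the peak there had 16.7 in replicate 1 and 9.60 in replicate 2.

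**Figure D4:**
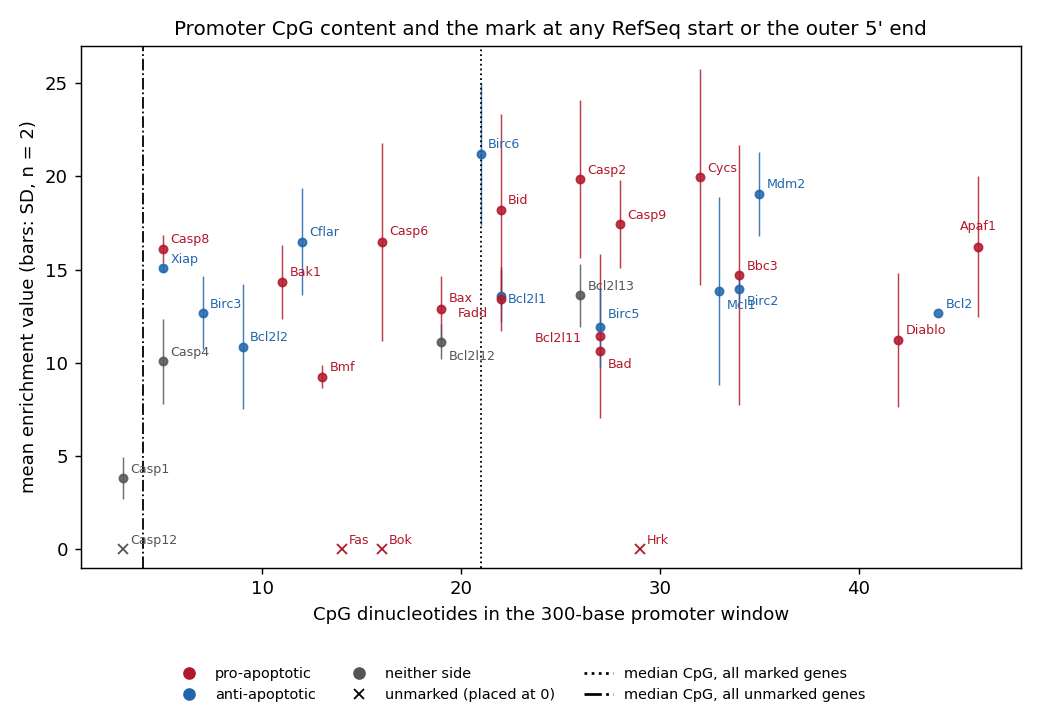
Mean enrichment value (bars, SD of 2 replicates) at the outer 5' end or any RefSeq start, for the 34 genes with a window. The highest peak of each replicate is used. At some genes, among them Casp8, Mcl1, Bmf and Xiap, these peaks lie at different places, so the bar is not the spread at a single site. The Casp8 point joins the inner peak of replicate 1 with the outer peak of replicate 2, over the CpG of the inner window. The horizontal axis gives the number of CpG in the promoter window of 300 bases. Crosses are unmarked genes placed at 0. Lines stand at the median CpG of all genes marked (21) and unmarked (4) by the rule of any start. Hrk sits at 0 with 29 CpG, and Xiap stands at 15.1 with 5 CpG.

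Exact matches to short motifs were counted on both strands of the same windows. GGGCGG, the core that SP1-type factors bind, was in 25 of 34 windows (73.5%), beside 46.3% of all promoters and 67.4% of those of marked genes. It was in 16 of the 18 pro-apoptotic windows (88.9%) and 7 of the 11 anti-apoptotic windows (63.6%). CCAAT was in 8 windows (23.5%), beside 39.2% of all promoters and 39.9% of those of marked genes. TATAAA was in 2 windows, those of Cflar and Bcl2l12 (5.88%), beside 13.3% of all promoters and 6.51% of those of marked genes. Of the spellings that GATA factors bind, AGATAA was in 1 window, that of Casp8 (2.94%), beside 9.94% of all promoters and 6.36% of those of marked genes. TGATAA was in 3 windows, those of Casp9, Birc3 and Casp4 (8.82%), beside 7.81% of all promoters and 3.94% of those of marked genes. A match is a description of these letters and not a bound site.

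A second list of 37 genes of the same pathways, which holds none of the 36, gives the surroundings. Of these, 22 were marked (59.5%, beside 47.1% of all genes), with a median value of 11.5 and a median domain of 2143 bp. Trp53, which encodes p53, had 10.6 and 10.4. The mitophagy receptor genes Bnip3 and Bnip3l, of which the second is known to clear mitochondria from maturing red cells, had 21.4 and 14.9, and 18.0 and 12.0. In the receptor route Tnfrsf1a had 15.3 and 17.4 and its adaptor Tradd 18.1 and 21.0, while Fasl, the ligand of FAS, was unmarked like Fas. The other unmarked genes were Casp14, Bcl2a1a, Bcl2a1b, Bcl2a1d, Bcl2l10, Bcl2l14, Bcl2l15, Cidea, Cideb, Cidec, Naip1, Birc7, Tnfrsf21 and Tnfrsf25, among which Bcl2l14 and Naip1 had a peak of both replicates within the span. The 3 Bcl2a1 genes are near-identical copies, and reads from such copies may not be placed in one of them, so their missing peaks are uncertain.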

How the data were processed

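H3K4me3 ChIP-seq peaks of 2 samples of DMSO-treated MEL cells were used, biological replicates 1 and 2 with 1 technical replicate each and fragments of 150 to 350 bp, per the labels. The authors deposited 1 peak set per replicate on mm10, a replicated set and an older mm9 set. The column the authors deposited as signal value is the enrichment value used here, and its scale is not stated. The authors deposited p-values and q-values as −log10, of which the q-values served as thresholds in alternatives. The sources used here name no aligner, peak caller or threshold. A pooled set was left out. Depth is unknown, since a peak file holds no counts, so only the spread of the replicates gives precision. Values of the replicates are set side by side as if on the same scale, and nothing says that the replicates came from separate thawings or cultures.

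Gene limits came from the RefSeq table of GRCm38.p6 (21887 protein-coding genes). Strand came from the RefSeq promoter table (17492 genes), otherwise from GENCODE M1 by symbol (3649) or synonym (395), and 351 genes without one were left out. The 2 strand sources differed at 39 of 14743 genes that both hold. Exons and introns of mm10 were not annotated here. Calculations used Python 3.11.15, numpy 2.4.6 and pandas 2.3.3, and the overlap step was tested on simulated peaks.

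The members, gene lists and alternatives were chosen with earlier results of these data known. All 36 members are named, with values of each replicate for every marked member and the nearest or strongest peak for every unmarked one. Sequences are shown for the marked members with the widest domain, the highest value and the lowest value and for the first 2 unmarked members by name. Single genes picked from the second list of 37 were chosen after their values were seen. Some genes of that list are counted but not reported singly here. With 1 group of samples no test between conditions exists, so comparisons are values, counts and medians. Alternatives were windows of 500 and 2000 bp, the gene span, −log10 q of at least 2 and 5, an overlap of 200 bp, gaps of 0 and 3000 bp, the peak nearest the 5' end in place of the highest, the replicated and mm9 sets, members with shared peaks left out, the BCL2 family alone and each replicate left out. Windows at every RefSeq start were chosen after seeing the data.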

Additional observations from a re-analysis of the deposited data

How the results depend on the processing

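No paired analysis was possible because there is only 1 group of samples. Of 120 group-level values under the alternatives, 96 stayed within the replicate spread or within 1.5 times the count, 22 moved and 2 reversed, and the cause was not tested. The value difference, pro minus anti, was −1.04 without replicate 2 and 1.70 without replicate 1, against 0.74 as reported, and under all other alternatives it lay between 0.071 (peak nearest the 5' end) and 1.88 (replicated set). The anti-apoptotic median value ranged from 13.2 to 13.7 when either replicate was left out, against 12.7. The width difference turned to 12 bp with a gap of 0 bp, where the pro-apoptotic median was 1475 bp and the anti-apoptotic 1463 bp. With a gap of 3000 bp the pro-apoptotic width was 2494 bp. Over the gene span the pro-apoptotic width was 2504 bp and the anti-apoptotic value 13.9. At −log10 q of at least 2 the anti-apoptotic width was 2763.5 bp and the difference −512 bp, and at 5 the anti-apoptotic value was 13.3, its width 2836 bp and the difference −585 bp. The replicated set gave an anti-apoptotic value of 13.4. Windows at every RefSeq start, chosen after seeing the data, gave a pro-apoptotic width of 2487 bp, an anti-apoptotic value of 13.9 and a width difference of −619 bp. The BCL2 family alone holds 11 marked genes, 9 pro-apoptotic with a width of 2487 bp and 2 anti-apoptotic with a value of 11.8 and a width of 4633 bp, a difference of −2147 bp. Of 10 settings that bear on the call of a gene, Bcl2l1 was marked in 3, Mcl1 in 4, Casp1 in 8 (not within 500 bp or at −log10 q of at least 5) and Xiap in 9 (not at 5), Bok, Hrk, Fas and Casp12 in 0, and the other 28 genes in all 10. The older mm9 set, on the transcript starts of its own annotation, marked 32 of the 36 genes, 17 pro-apoptotic and 11 anti-apoptotic, beside 47.2% of its genes. Of 684 values of single genes, 601 stayed within the replicate spread and 83 moved. This count includes the values with either replicate left out. Those lie within the spread of the 2 replicates by construction, so they could not move and tell nothing of stability.

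Depth is unknown, so its effect on the low outer peaks of Xiap and Casp1 was not tested, and a missing peak at Bok, Hrk, Fas or Casp12 says only that none was called in these sets.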
